A study of Mus musculus with 192 samples.

Results

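The interferon-induced transmembrane (Ifitm) genes Ifitm3, Ifitm2 and Ifitm1 were followed in single mouse embryonic fibroblasts by the start sites of their transcripts. The members were the 150 bp start-site windows that the deposited RefSeq table names for these 3 genes within 1000 bp of the annotated start. They number 60 of the 553094 windows in all: 33 of Ifitm2, 19 of Ifitm3 and 8 of Ifitm1. A peak called in a cell was counted when it lay on the gene's strand and began within 2 bp of such a window. In the kept cells, 54 of the 60 windows held at least 1 such peak and 6 held none. Naive cells used 33 windows and pretreated cells 33, and 12 were used in both. The share of windows used in both groups over all genes is not given here, so nothing about the members is read from these counts.

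All cells were fibroblasts grown from embryos of strain C57BL/6, and all received interferon-beta, a secreted antiviral protein, at 100 U/ml for 1 h. The groups are labelled Naïve-1h and Preteated-1h (the labels' spelling), with 96 cells each. The labels leave the pretreatment unspecified and give no animal age, embryo, culture or plate. Each group is therefore 1 sample made of many cells, no difference between the groups has a replicate check, and no test was run. Reads marked the 5′ ends of RNA, so a level here counts transcript starts and does not scale with transcript length.

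IFITM proteins are small membrane proteins that stop many enveloped viruses from fusing with the cell. Ifitm3 and Ifitm2 proteins sit mainly in endosomes, where viruses such as influenza enter, while Ifitm1 protein is found more at the cell surface. The genes lie side by side in 1 cluster, and interferon raises their transcription through factors that bind short promoter elements.

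The annotated starts stand 12115 bp apart for Ifitm1 and Ifitm2 and 42668 bp apart for Ifitm3 and Ifitm1, on chromosome 7 in both builds used here. Ifitm3 and Ifitm2 are on the minus strand and Ifitm1 is on the plus strand. The promoters of the members are shown because the start sites described below fall at or next to them. Each runs 5′ to 3′ from 100 bases before to 29 bases after the annotated start (RefSeq, build GRCm38.p6). Capitals mark matches to GAAANNGAAA, the core letters of the interferon-stimulated response element.
Ifitm3 (chr7:141010715-141010844, minus strand): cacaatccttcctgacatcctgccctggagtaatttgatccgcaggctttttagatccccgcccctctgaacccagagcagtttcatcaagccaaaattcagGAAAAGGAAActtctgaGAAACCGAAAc
Ifitm2 (chr7:140955932-140956061, minus strand): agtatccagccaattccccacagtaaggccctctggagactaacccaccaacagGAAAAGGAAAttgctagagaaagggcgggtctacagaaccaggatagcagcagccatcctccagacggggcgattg
Ifitm1 (chr7:140967976-140968105, plus strand): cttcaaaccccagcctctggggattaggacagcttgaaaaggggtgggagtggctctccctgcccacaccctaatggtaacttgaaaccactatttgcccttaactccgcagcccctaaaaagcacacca

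With the annotated start counted as 0, Ifitm3 held 2 matches, GAAAAGGAAA from +2 to +11 and GAAACCGAAA from +19 to +28. Ifitm2 held the same letters GAAAAGGAAA once, from -46 to -37, and Ifitm1 held none. The search covered both strands of the 300 bases from 250 before the start. Over 32851 promoters of that length, 3.44% held a match and 0.225% held 2 or more. In a list of other interferon-induced antiviral genes, 15 of the 27 with a promoter in the table had a match in at least 1 promoter. That count is by gene and the 3.44% is by single promoter, so they are not the same measure. The letters TTCNNNGAA, the core of the gamma-activated site, matched in Ifitm3 as TTCTGAGAA from +13 to +21, overlapping the second response element, and in 8.30% of all promoters. TATAAA was found only on the other strand of Ifitm2 at -175, among the 3 members, and in 13.6% of all promoters. A match is a run of letters and shows no binding.

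Shallow cells, under 10% of the median depth, were set aside, which kept 92 naive and 85 pretreated cells. Levels are in normalized tags: reads that mark a start, per 10000000 tags of the cell or of the group. Their totals ran from 305066 to 3857034 tags in naive cells (median 2305628) and from 502374 to 13174313 in pretreated cells (median 2650490). Peaks held 90.1% of naive and 84.6% of pretreated tags. The mitochondrial chromosome had peaks in 92 naive cells and in 0 pretreated cells. A difference in file handling and the pretreatment cannot be told apart. Among fibroblast markers, Vim, Col1a1, Fn1, Col3a1 and S100a4 passed the filter on low levels described below, and Lum had no peak. Col1a2, Pdgfrb, Pdgfra, Dcn and Thy1 did not pass. They had a peak in 49, 23, 10, 3 and 1 naive cells and in 57, 40, 6, 1 and 0 pretreated cells. Vim and Col1a1 had the highest marker levels, 5951 and 3287 in naive and 10877 and 3770 in pretreated cells. The summed level of 11 fibroblast markers had a median of 14357 normalized tags in naive cells (range 2729.6 to 37522.3) and 18721 in pretreated cells (996.6 to 46336). Macrophage markers summed to 155 and 215 normalized tags in the groups, mostly Cd14 and Cd68, with Ptprc and Adgre1 listed at 0. No epithelial or muscle marker had a peak, and Pecam1, Cdh5, Pou5f1 and Dppa3 were also listed at 0. Of 5 endothelial markers only Kdr had a peak, with 792 tags in 1 pretreated cell, and of 6 germ cell markers only Nanos3, with 107 tags in 1 pretreated cell.

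One library stood apart. Pretreated cell 93 had an ordinary total of 2257663 tags and 9216 peaks, but its sum over 35 other interferon-induced antiviral genes was 7548 normalized tags, the lowest of the pretreated cells, whose median was 98355. It had peaks for 6 of those genes, against a median of 22. Its Ifitm3 value, 1457, was the lowest of either group, and it had no Ifitm2 peak. Group values below include it, and values without it follow where it matters.

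Ifitm3, the member best known for restricting influenza virus, was among the most abundant start signals in both groups and was about 2 times higher in pretreated cells. Every kept cell had an Ifitm3 peak, 92 of 92 and 85 of 85. Naive cells held from 1803 to 115068 normalized tags, with a median of 30623. Pretreated cells held from 1457 to 105237, with a median of 71533. The ranges overlapped from end to end, but the bulk did not: 83 of 85 pretreated cells lay above the naive median, and 1 of 92 naive cells lay above the pretreated median. Apart from cell 93, the lowest pretreated cell was at 26513.

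Summed over cells, Ifitm3 had 32786 normalized tags in naive cells (95% exact Poisson interval 32707 to 32865, from 666604 tags) and 71054 in pretreated cells (70957 to 71152, from 2037699 tags). The log2 ratio of pretreated over naive levels was 1.12 (1.11 to 1.12), or 2.17-fold. These intervals cover the counting error of reads only. Tags are reads and not molecules, so the intervals may be too narrow for the counting error of molecules. The ratio is relative to all tags of a cell. It was 0.95 when scaled to tags near gene starts and 0.73 with median-of-ratios scaling, which moves the ratio of every gene by 0.38, so that of these 3 scalings only the first puts Ifitm3 past a log2 ratio of 1. Without cell 93 it was 1.13.

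Genes with at least 500 normalized tags in either group and a peak in at least 20% of a group's cells numbered 2234. Of these, 25.6% were higher in pretreated cells by a log2 ratio of at least 1, and 11% were lower by as much, with a median of 0.38 over all. Ifitm3 and Ifitm2 passed this filter and Ifitm1 did not. Ifitm3 was the 1 member called higher and Ifitm2 the 1 called lower. The ratio of Ifitm3 was exceeded by 477 genes and is no extreme among them. Its level ranked 6 of these genes in naive and 4 in pretreated cells.

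Ifitm3 also varied less from cell to cell in the pretreated group. Its coefficient of variation (SD over mean of the per-cell levels) was 0.471 in naive and 0.256 in pretreated cells, and 0.231 without cell 93. Among 69 genes with a peak in every kept cell, no gene had a lower value in pretreated cells, where the median was 0.415. In naive cells 28 of the 69 were lower than Ifitm3, and the median was 0.491. This value was lower in pretreated than in naive cells for 53 of the 69 genes.

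**Figure D1:**
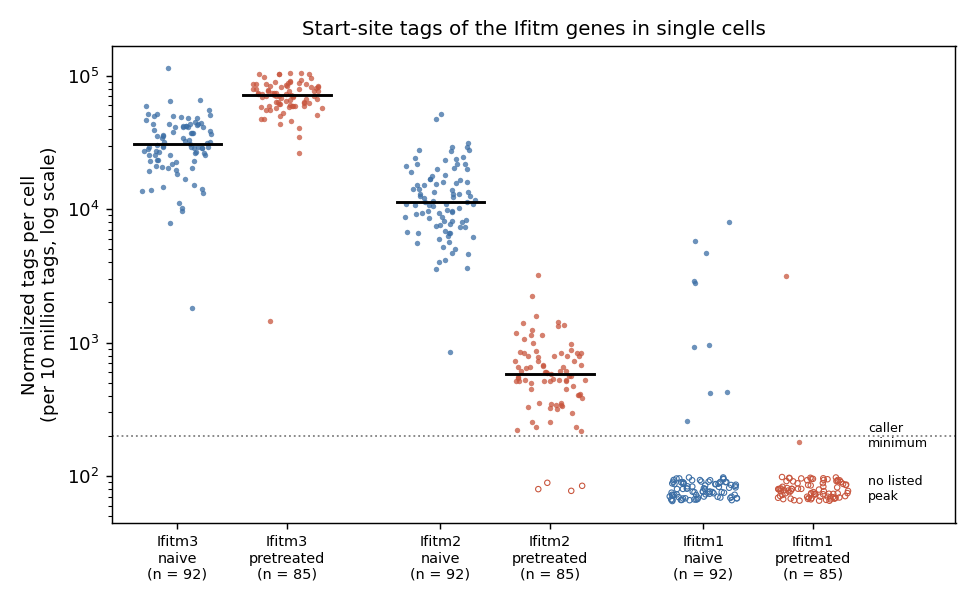
Normalized tags (log axis) for Ifitm3, Ifitm2 and Ifitm1; each point is 1 kept cell (92 naive, 85 pretreated), black lines are medians, and open points near the bottom are cells with no listed peak, drawn at no measured height. The dotted line is the score of 200 that the caller required; 1 listed signal lies just below it. Pretreated cells sit higher for Ifitm3 (medians 30623 and 71533) and lower for Ifitm2 (medians 11394 and 577).

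Ifitm2, the close relative of Ifitm3, went the other way and was about 21 times lower in pretreated cells. Naive cells held from 852 to 51824 normalized tags, with a median of 11394, and 92 of 92 had a peak. Pretreated cells held from 0 to 3226, with a median of 577, and 81 of 85 had a peak (95.3%, 95% exact Clopper-Pearson interval 88.4 to 98.7). The groups barely overlapped. All naive cells but 1 (91 of 92) lay above the highest pretreated cell, and 69 of 85 pretreated cells lay below the lowest naive cell. That lowest naive cell, number 31, also had the lowest naive total, 305066 tags, and the lowest naive Ifitm3 value.

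The group levels of Ifitm2 were 13634 (13584 to 13685, from 277211 tags) and 643.9 (634.7 to 653.3, from 18466 tags). Their log2 ratio was -4.40 (-4.43 to -4.38), which is 21.2-fold lower. Only 19 of the 2234 genes had a lower ratio. Ifitm2 was number 45 by level in naive and number 1684 in pretreated cells. Without cell 93 the log2 ratio was -4.39. Many pretreated values stood close to 200, the score that the caller required of a peak: 17 cells with an Ifitm2 peak were under 400 and 12 were at 1000 or more. The 4 cells with no peak had none that met the caller's score and its criteria on local density, and are not shown to lack the RNA.

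Part of the Ifitm2 transcript resembles other genes, and multi-mapping reads could have been handled in ways that the sources used here do not give. Of 631 stretches of 25 bases along the GENCODE transcript of Ifitm2, 277 also occur in transcripts of other genes, 13 genes in all. In the first 100 bases from the transcript's annotated start, 3 of 76 do. Peaks centred upstream of that start, with 110841 of 277211 naive and 13603 of 18466 pretreated Ifitm2 tags, are not covered by this count. For Ifitm3 the counts were 166 of 654 along the transcript and 0 of 76 at its beginning, and for Ifitm1 170 of 712 and 0 of 76, with 48.8% of naive Ifitm1 tags within 100 bp of the start. Ifitm3 and Ifitm2 transcripts were identical in 472 of 715 aligned columns, with a longest shared run of 69 bases, but of only 7 bases within the first 100. The read length is not stated, and the part of shared sequence in the levels was not tested.

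Ifitm1, the member more often placed at the cell surface, was listed in few cells. It had a peak in 10 of 92 naive cells (10.9%, 5.34 to 19.1) and in 2 of 85 pretreated cells (2.35%, 0.286 to 8.24). The 10 naive cells held from 258 to 8049 normalized tags, with a median of 1890. The 2 pretreated cells held 179 and 3176. The groups overlapped among cells with a peak. The intervals of the shares cover counting error over cells of 1 sample each, and the difference in shares was not tested.

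The tags of Ifitm1 came from few cells. Naive cell 78 gave 39.3% of the 5854 naive tags, and 1 pretreated cell gave 90.9% of the 528 pretreated tags. The group levels were 287.9 and 18.4, with a log2 ratio of -3.97 (-4.10 to -3.84), an interval that covers the counting error of reads only. With the highest cell of each group left out it was -6.70, and as a mean over cells it was -2.91, so its size rests on single cells. If every cell with no peak held 200, the means would be 474 in naive and 235 in pretreated cells. Naive cell 78 had the highest level of all 3 members, with 115068 for Ifitm3, 51824 for Ifitm2 and 8049 for Ifitm1.

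The share of the family taken by each member separated the groups more cleanly than the level of either gene. Ifitm2 as a share of Ifitm2 and Ifitm3 tags ran from 12.5% to 50.5% in naive cells, with a median of 27.7%. In pretreated cells it ran from 0% to 3.04%, with a median of 0.775%. The groups did not overlap: 92 of 92 naive cells lay above the highest pretreated cell. This share needs no scaling to a cell's total, since both genes are measured in the same cell. Ifitm2 exceeded Ifitm3 in 2 naive cells and in 0 pretreated cells. Ifitm3, Ifitm2 and Ifitm1 gave 70.2%, 29.2% and 0.616% of the naive family tags and 99.1%, 0.898% and 0.0257% of the pretreated ones. The family as a whole came to 46708 and 71717 normalized tags, a log2 ratio of 0.62.

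**Figure D2:**
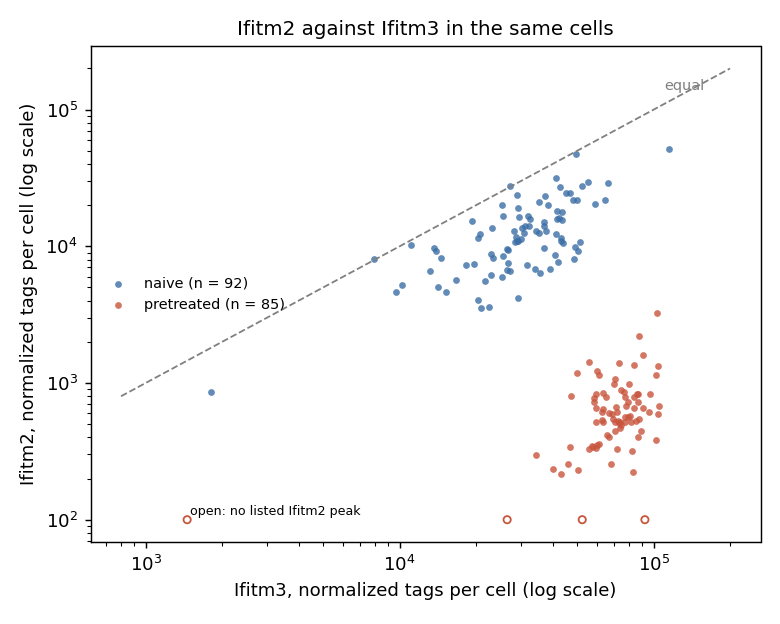
Ifitm2 (y) against Ifitm3 (x) in the same cells, as normalized tags on log axes; points are cells (92 naive, 85 pretreated), open points at the bottom are the 4 pretreated cells with no listed Ifitm2 peak, and the dashed line marks equal levels. The groups form clouds that do not share any ratio: the Ifitm2 share was at least 12.5% in naive cells and at most 3.04% in pretreated cells.

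Across cells, the levels of Ifitm3 and Ifitm2 were positively related within each group, less closely in pretreated cells. Over the 92 naive cells Pearson's r was 0.698 and Spearman's rho 0.624, and r was 0.573 without the 2 cells farthest from the median of Ifitm3. Over the 85 pretreated cells r was 0.394, rho 0.353, and r without the 2 farthest cells 0.337. Both genes of a cell share its library and its total, so these are descriptions. The rho of Ifitm3 with the cell's total tags was -0.07 in naive and -0.02 in pretreated cells, and that of Ifitm2 -0.06 and 0.11. With the summed level of the 35 other antiviral genes, rho was 0.514 and 0.442 for Ifitm3 and 0.533 and 0.238 for Ifitm2.

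The genes whose per-cell levels were most like Ifitm3 in naive cells, among 670 genes with a peak in at least 80% of those cells, were Ifitm2 (rho 0.624), Selenow (0.473), Rtp4 (0.457), Irgm1 (0.418) and B2m (0.405). Rtp4 and Irgm1 are interferon-induced, Irgm1 being a GTPase, and B2m is the light chain of class I antigen-presenting molecules. The median rho over all 670 was -0.03. In pretreated cells, among 1211 genes, the nearest were Srp14 (0.451), B2m (0.439), Ssr4 (0.427), Nop10 (0.406) and Cops4 (0.405), and Ifitm2 came 13th. Srp14 and Ssr4 serve protein entry into the endoplasmic reticulum.

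For Ifitm2 the nearest genes in naive cells were Ifitm3, Gabarap (rho 0.598), Irgm1 (0.509), Rtp4 (0.482) and B2m (0.448). Gabarap encodes an autophagy protein. In pretreated cells they were Gabarap (0.474), Prdx2 (0.472), Fth1 (0.470), Ly6e (0.466) and Rpl13a (0.458), and Ifitm3 came 24th. Ly6e is interferon-induced and anchored in the cell membrane, and Fth1 is a ferritin chain. Gabarap was thus on the list of the 5 nearest to Ifitm2 in both groups, and B2m on that of Ifitm3. The middle 95% of rho over all genes reached 0.337 or less in each case, and Ifitm1 had too few cells for such a list.

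Where Ifitm3 peaks were centred also differed between the groups. The tag-weighted median of the window centres was 32 bp downstream of the annotated start in naive cells and 45 bp in pretreated cells, a shift of 13 bp. Naive cells spread their main peak over several neighbouring windows, all annotated as promoter-TSS of NM_025378 on mm9. The window at chr7:148196537-148196686, centred at +32, was listed in 39 naive and 14 pretreated cells. The one at chr7:148196551-148196700, centred at +18, was listed in 28 naive cells and 1 pretreated cell and held 27.4% and 0.188% of the tags. The one at chr7:148196534-148196683, centred at +35, was listed in 15 naive cells with 19.7% of the tags and in no pretreated cell.

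Pretreated cells concentrated on 1 window instead. The window at chr7:148196524-148196673, centred at +45, was listed in 3 naive and 70 pretreated cells. In normalized tags, peaks centred between +41 and +60 had 822 in naive and 60268 in pretreated cells. Those from +25 to +40 had 21408 and 10578, and those below +25 had 10119 and 133. All tags of a 150 bp peak count at its centre, and only 5 naive and 4 pretreated cells had more than 1 Ifitm3 peak. A class level thus shows where centres fell, and whether fewer transcripts began at upstream bases was not tested. Windows within 100 bp of the annotated start held 99.5% and 99.9% of all Ifitm3 tags, so exon windows further down added little.

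The focus ratio, a fraction from 0 to 1 that HOMER gives each peak, was higher where the window centre lay further downstream. It is not read here as sharpness, since it was not measured apart from the position of the centre. In naive cells the median focus ratio of main Ifitm3 peaks was 0.434 for centres below +25, 0.750 from +25 to +40 and 0.927 from +41 to +60. In pretreated cells it was 0.551 for the 14 cells at +25 to +40 and 0.816 for the 70 cells at +41 to +60, where it ran from 0.744 to 0.880. At each of the 3 windows used by both groups, the median focus ratio was lower in pretreated cells. It was 0.445 and 0.298 at +18 (28 naive cells and 1 pretreated cell). At +32 it was 0.744 and 0.551 (39 and 14 cells), and at +45 it was 0.927 and 0.816 (3 and 70 cells). Weighted by tags over all windows, the focus ratio of Ifitm3 was 0.648 in naive and 0.778 in pretreated cells. Past the filter, 2061 genes had a peak in at least 20% of the cells of each group. Over these the ratio was lower in pretreated cells for 1794, with a median difference of -0.08. The Ifitm3 difference of 0.13 was above that of 99.3% of the genes, in a gene whose centres also lay further downstream and whose ratio was lower at each shared window. A shift of at least 13 bp in either direction was seen in 20.3% of them, so the distance itself is not rare.

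Ifitm2 peak centres lay further upstream in pretreated cells and were listed at 25 windows, against 14 in naive cells. They rest on 18466 tags in pretreated cells against 277211 in naive cells, and neither the number of windows nor the shift was compared at equal tags. The number of windows was not set beside that of other genes. The tag-weighted median was at +24 in naive and at -16 in pretreated cells, a shift of -40 bp, and 3.88% of the 2061 genes shifted at least as far. In naive cells the window at chr7:148141762-148141911, centred at +24, was listed in 44 cells and held 54.2% of the tags. In pretreated cells it was listed in 1 cell and held 3.33%. The window at chr7:148141802-148141951, centred at -16, held 15.6% of naive tags in 15 cells and 22.5% of pretreated tags in 19 cells. Both are annotated as promoter-TSS of NM_030694.

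Summed by the position of the peak centre, Ifitm2 was lower both at and upstream of the annotated start, but not equally. All tags of a peak count at its centre, so these sums do not place single starts. Peaks centred from 0 to +30 had 166151 tags in naive and 811 in pretreated cells, a log2 ratio of levels of -8.17 (-8.28 to -8.08). Those centred upstream of the annotated start had 110841 and 13603 tags, a log2 ratio of -3.52 (-3.55 to -3.50). Peaks centred from +31 to +60 had 0 tags in naive cells and 3967 in pretreated cells, where they were the main peak of 15 cells and held 21.5% of the tags. Among peaks with a focus ratio of at least 0.9 (44 naive, 21 pretreated), the median moved by 25 bp downstream. That cut took out every naive peak centred upstream of the start, where the highest ratio was 0.81. It is thus a selection by position, and no direction is read from it.

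The focus ratios of Ifitm2 peaks also went with the position of the centre. Upstream peaks had a median focus ratio of 0.589 in naive and 0.661 in pretreated cells. Peaks from 0 to +30 had 0.987 in naive cells, and those from +31 to +60 had 0.986 in pretreated cells. The focus ratio weighted by tags was 0.807 in naive and 0.709 in pretreated cells. This difference of -0.10 was close to the median of all genes, and 40.4% of them had a lower one. At the window centred at -49, which 8 pretreated and 0 naive cells listed, the median focus ratio was 0.293.

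**Figure D3:**
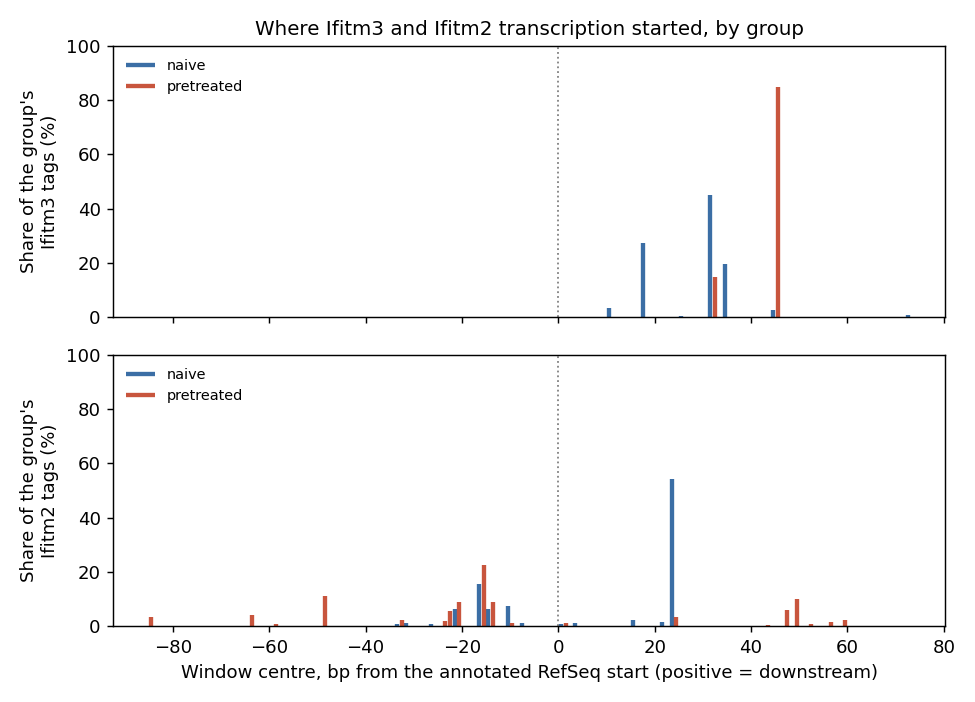
Share of a group's Ifitm3 tags (top) and Ifitm2 tags (bottom) in each window, in percent, by the distance of the window centre from the annotated RefSeq start in bp (positive is downstream); blue bars are naive and red bars pretreated, bars of the same window stand side by side, and windows beyond 100 bp are not drawn. Ifitm3 tags of pretreated cells gather in the window centred at +45 (84.8%), and Ifitm2 tags of naive cells in the one centred at +24 (54.2%).

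**Figure D4:**
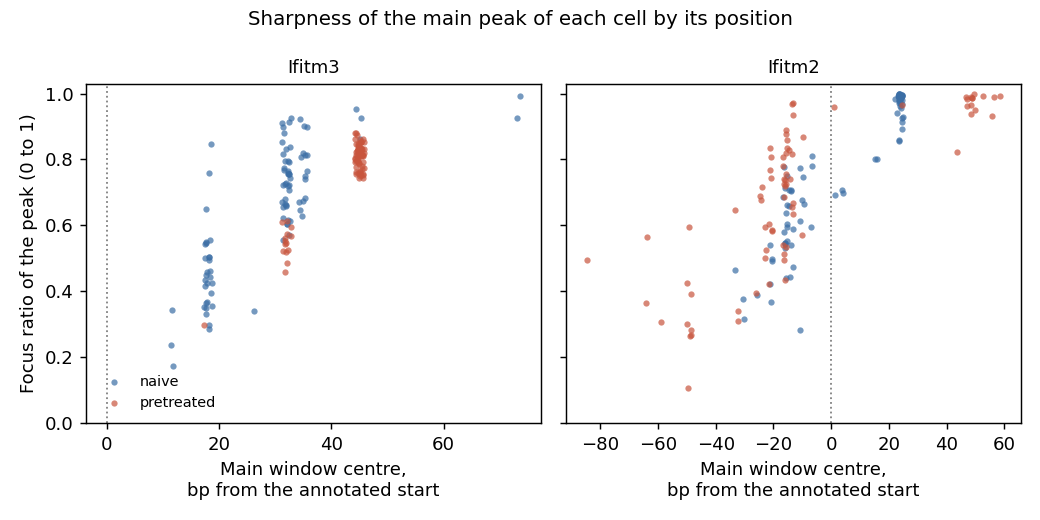
Focus ratio (0 to 1) of the main peak of each cell by the distance of its window centre from the annotated start in bp, for Ifitm3 (left) and Ifitm2 (right); each point is 1 kept cell with a peak, moved slightly sideways to separate points, and peaks beyond 100 bp are not drawn. The ratio was higher for centres further downstream in both genes: Ifitm2 peaks upstream of the start had medians of 0.589 and 0.661, and those from 0 to +30 in naive cells 0.987. Sharpness in the title stands for this ratio, which was not measured apart from position.

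The positions of the main Ifitm3 and Ifitm2 peaks of a cell were set side by side, and a relation between them was not tested. Of naive cells whose Ifitm3 peak was centred from +25 to +40, 41.8% (23 of 55) had their main Ifitm2 peak upstream of the start. Of those with Ifitm3 below +25, the share was 54.8% (17 of 31). From +41 to +60 it was 1 of 3 naive cells, and above +60 all 3 had their Ifitm2 peak from 0 to +30. In pretreated cells the shares were 71.4% (10 of 14) for Ifitm3 at +25 to +40 and 74.3% (52 of 70) for +41 to +60. Of these 70 cells, 3 had no Ifitm2 peak, and neither had the 1 pretreated cell below +25.

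The promoters printed above give the distance of these centres from the response element letters. Distances between the annotated starts were the same in mm9 and GRCm38, so a position is counted here from the start and not from a coordinate. From the first base of GAAAAGGAAA, the Ifitm3 centre at +32 lay 30 bp downstream and the one at +45 lay 43 bp downstream. The Ifitm2 centre at -16 also lay 30 bp downstream of its copy of these letters, and the one at +24 lay 70 bp downstream. In Ifitm3 the centre at +18 fell within 1 bp of the first base of the second match, GAAACCGAAA. A window centre is the middle of 150 bp and not a base where RNA begins. No relation between the letters and the levels was tested.

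Ifitm1 starts cannot be compared on so few cells. Naive peaks lay between +2 and +155 and pretreated ones at +9 and +67. In naive cells 48.8% of the tags lay within 100 bp of the annotated start, and the window with most tags, chr7:148154056-148154205 at +155, is annotated as 5′ UTR in exon 1 of 2 of NM_001360728. It held 41.5% of the naive tags, from 2 cells. The window at +9 was the 1 window listed in both groups.

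Other genes of the family were listed in few cells. None of Ifitm5, Ifitm6, Ifitm7 and Ifitm10 passed the filter. Ifitm6 had 816 tags in 3 naive cells and 1280 tags in 8 pretreated cells. Ifitm10 had 815 tags in 5 naive cells and was listed at 0 in pretreated cells, and Ifitm5 had 266 tags in 1 pretreated cell. Ifitm7 had no peak on its strand.

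Of 9 genes known to act on IFITM proteins, 4 passed the filter, 0 were called higher and 2 lower, with a median log2 ratio of -0.39 beside 0.38 over all genes. The shares over all 2234 genes were 25.6% higher and 11% lower, and 4 genes are too few to set against them. Ap2m1, the adaptor subunit that draws IFITM3 into endocytic vesicles, had a level of 6264 in naive and 1734 in pretreated cells, a log2 ratio of -1.85. Nedd4, a ubiquitin ligase that marks IFITM3 for degradation, had 5581 and 2622, a ratio of -1.09. Cd81, a tetraspanin found with IFITM proteins, had 4609 and 5748 (0.32), and Zdhhc20, an enzyme that attaches palmitate to IFITM3, had 672 and 1019 (0.60).

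Of 10 genes of type I interferon signalling, 4 passed the filter, 2 were called higher and 0 lower, with a median of 0.90. Over all 2234 genes, 25.6% were higher and 11% lower, so with 4 genes these counts are no result about the pathway. Usp18, a brake on the interferon receptor, had levels of 3263 and 10025 (log2 ratio 1.62). Stat2, which carries the signal to the nucleus, had 1068 and 1108 (0.05), and the kinase Jak1 had 487 and 554 (0.19).

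Of 35 other interferon-induced antiviral genes, 20 passed the filter, with a median log2 ratio of 2.96. Of these, 16 were called higher, 0 lower and 4 lay between, beside 25.6% higher and 11% lower over all 2234 genes. Bst2, Zbp1, Ifi44, Psmb8, Rsad2, Gbp3, Oasl2, Gbp2, Adar and Ifi27l2a had naive levels under 500 and passed only through pretreated cells. They could only come out higher, so the count called higher and the median rest in large part on the filter. Genes of the list under the filter went both ways, with Mx2 at -1.52 and Tap1 at 4.22. One of the 20, Ifi27l2a, was listed at 0 in naive cells, and the median is also 2.96 with that gene at its bound. B2m had levels of 2512 and 22876 (log2 ratio 3.19), and Bst2, which tethers budding virus to the cell, had 267 and 11411 (5.42). Lgals9, a galectin, had 1035 and 10422 (3.33), and Ifit1, which binds viral RNA, had 5216 and 10143 (0.96). The Ifitm3 ratio of 1.12 lay below this median, which includes genes that passed only through pretreated cells. Ifitm2 lay below all 20, of which the lowest was Eif2ak2, a kinase activated by double-stranded RNA, at -0.19.

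**Figure D5:**
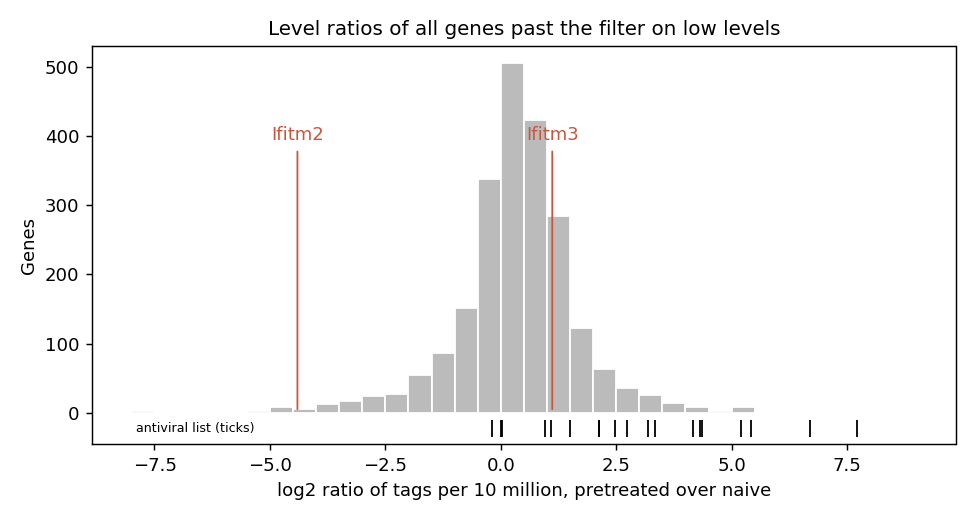
Histogram of the log2 ratio of normalized tags, pretreated over naive, for 2234 genes past the filter (y: number of genes; bins from -8 to 9, with 5 genes outside). Red lines mark Ifitm2 at -4.40 and Ifitm3 at 1.12, and black ticks mark the 19 antiviral list genes that had naive tags; Ifitm3 lies inside the main body, Ifitm2 in the lower tail.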

How the data were processed

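Start sites were measured in 192 single mouse embryonic fibroblasts. Per the submitters' processing notes, reads were processed with Bowtie2 and HOMER on mm9; the versions are not given in the sources used here. Peaks were called by the authors in each cell on each strand with HOMER findPeaks, 150 bp wide and at least 300 bp apart, at a score of at least 200 tags per 10000000 tags, 2 times the density of the surrounding 10000 bp and a Poisson p of 1e-04, per the file headers. Each peak carries 2 deposited values used here: a signal, in tags per 10000000 tags in that cell, and a focus ratio, a fraction from 0 to 1. The signal of 1 of 373 member peaks, 178.8, lay below the minimum. Duplicates and molecular identifiers are not given in the sources used here. The deposited distance of a window to the annotated start is in bp.

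Tags were recovered as signal times the header total divided by 10000000. All 1082504 peaks came within 0.1 of a whole number. A count table had been assumed, and these tags took its place. No model of counts was fitted. Cells under 230562.75 tags were left out. Windows are listed on 1 strand, so strands came from GENCODE vM21. The 1713 peaks outside the windows were not used, nor were 2 matrices of 384 unnamed columns and 2 tables that name the same windows by other annotations. Log2 ratios had 0.5 tag added to each sum. Intervals are exact, at 95%.

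The members, lists and alternatives were chosen with earlier results of these data known. The text names the 3 members, the 4 genes of each list with the highest pretreated level, and the 5 genes with the highest rho. One gene that this rule takes is not reported here. Genes, cells and windows named beside these (Ifi27l2a, Eif2ak2, Mx2, Tap1, the other Ifitm genes, markers, cells 31, 78 and 93) were chosen after their values were seen. So were the antiviral genes named for passing the filter only through pretreated cells. Alternatives were other scalings, no depth filter, the highest cells left out, means over cells and windows within 100 bp. Both strands, thinning, a higher minimum and peaks with a focus ratio of at least 0.9 were also tried. Scripts ran in Python 3.11.15 with pandas 2.3.3, numpy 2.4.6 and scipy 1.17.1, and were tested on simulated data.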

Additional observations from a re-analysis of the deposited data

Results flagged for a closer look

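Peaks on the strand opposite to the members, more than 1000 bp from their starts, enter no comparison above. For Ifitm3 they reached 420 normalized tags (per 10000000 tags) in pretreated cells (12047 tags in 59 of 85 cells), against 0 tags in naive cells. Most came from chr7:148195486-148195635 on mm9, 1083 bp downstream of the start at the annotated end of the gene, which was listed in 56 pretreated cells with 11333 tags. For Ifitm2 they reached 275 normalized tags in pretreated cells (7881 tags in 54 cells) and 33.7 in naive cells (686 tags in 11 cells). There the main window was chr7:148140766-148140915, 1020 bp downstream in the 3′ UTR of exon 2 of 2, listed in 5 naive and 43 pretreated cells. The Ifitm3 signal went with the higher sense level and the Ifitm2 signal with the lower one. Over all genes, antisense tags beyond 1000 bp made up a smaller share in pretreated cells, 4.52% against 6.81% of the tags in named windows. What these peaks are was not tested.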

How the results depend on the processing

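No paired analysis was possible because the cell numbers in the labels only name cells and each group is 1 sample. The signs of all 3 level ratios held under every alternative run, with ranges of 0.73 to 1.17 for Ifitm3, -4.79 to -4.33 for Ifitm2 and -6.70 to -2.91 for Ifitm1. In the order Ifitm3, Ifitm2, Ifitm1, the log2 ratios were 0.95, -4.57 and -4.14 scaled to gene tags, 0.73, -4.79 and -4.35 with median-of-ratios scaling, 1.17, -4.33 and -6.70 without the highest cells, 1.11, -4.35 and -2.91 as means over cells, and 1.12, -4.45 and -2.93 within 100 bp. Without pretreated cell 93, an alternative chosen after seeing the data, Ifitm3 was at 1.13. The difference in the share of cells with an Ifitm2 peak, -4.71 percentage points, was -12.5 with no depth filter and -32.9 for peaks of at least 500 normalized tags, since many pretreated peaks lay below that. The Ifitm2 start shift of -40 bp became 25 bp for peaks with a focus ratio of at least 0.9, a cut that took out every naive upstream peak. The same cut could not be computed for Ifitm3, which had 15 such peaks in naive and 0 in pretreated cells. Thinning left out 16 naive and 2 pretreated cells.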
